A study of Mus musculus with 85 samples.

Results

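The genes described here encode the protein subunits of the mitochondrial ribosome, taken as every gene whose symbol starts with Mrpl or Mrps followed by a digit on array probe sets that name 1 gene. There were 76 such genes among the 18193 genes on the array, each read on its brightest probe set, and 2 further genes, Mrpl30 and Mrpl53, lay only on probe sets that name several genes and were not used. A gene was taken as detected in a cell at a log2 value over 5, the background threshold, and as measured when at least 3 cells detected it. All 76 genes were measured, among 10694 measured genes in all. Across the 5 populations their mean log2 values had a median of 8.10, against 5.16 for all measured genes.

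The mitochondrial ribosome makes the few proteins that are encoded in mitochondrial DNA, all of them core subunits of the respiratory chain and the ATP synthase. Its own proteins are encoded in the nucleus, made in the cytoplasm and imported, and they assemble with ribosomal RNAs from mitochondrial DNA into a small subunit (Mrps genes), which reads the messenger RNA, and a large subunit (Mrpl genes), which joins the amino acids. Many of these proteins descend from bacterial ribosomal proteins, and the others were added in the mitochondrial lineage. Resting blood stem cells of the adult are known for low respiration.

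The values come from 85 single cells of mouse embryos, each sorted, amplified and hybridised to its own Affymetrix whole-genome array. Endothelial cells (EC, 7 cells, eR1-GFP-CD31+Ter119-CD45-CD41-) and hemogenic endothelial cells (HEC, 7 cells, eR1-GFP+CD31+Ter119-CD45-CD41-), the subset from which blood cells bud, came from the caudal part of eR1-GFP embryos at embryonic day (E) 10.5, where eR1 is a Runx1 enhancer that drives the reporter. Hematopoietic cluster cells (c-Kit+CD31+CD45+SSEA1-), which bud from the aortic wall, came from wild-type embryos. The 28 day 10.5 cluster cells (E10.5 cluster in the plots) were taken from the caudal part and the 16 day 12.5 cluster cells (E12.5 cluster) from the aorta-gonad-mesonephros, the region around the dorsal aorta. Hematopoietic stem cells (HSC), sorted as Lin- cells with c-Kit, Sca-1, Mac-1 and CD150 and without CD48, came from wild-type fetal liver at E14.5. Of its 27 arrays, cells 20 and 21 correlated at r = 0.991, against 0.859 for the next closest pair, and were averaged, which left 26 HSC and 84 cells in all.

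Since the labels do not say which embryos or litters the cells came from, a population is treated as 1 sample, no test was made, and an SD shows the spread between cells only. A gene is given as higher or lower where its mean log2 values of 2 populations differ by 1 or more. EC and HEC were gated apart by GFP alone, and the cluster populations share a gate but not stage and tissue. All other pairs of populations also had unlike gates, together with unlike genotype, tissue or stage, and these cannot be told apart from cell type. The blood cell marker CD45 was itself used to sort EC, HEC and cluster cells. Its gene Ptprc was detected in 0 of 7 EC, 0 of 7 HEC, 26 of 28 day 10.5 cluster cells, 15 of 16 day 12.5 cluster cells and 22 of 26 HSC. The number of measured genes detected averaged 3469 in EC, 4612 in HEC, 5908 in day 10.5 cluster cells, 4688 in day 12.5 cluster cells and 3965 in HSC, and this difference in depth runs beside every result below. The 6 cells left out in one alternative carried genes of other cell types: in EC cell 3 Dppa3 (14.59) and Pou5f1 (13.96), which mark germ cells, were high and the endothelial gene Cdh5 was at background (2.32), day 12.5 cluster cells 3, 6 and 10 held the macrophage gene C1qb at 15.59 to 15.88, and HSC 5 and 7 held the liver endothelial gene Lyve1 at 14.73 and 15.05. Marker lists were also high in single day 10.5 cluster cells, up to a mean of 10.07 over 3 erythroid genes and 9.27 over 6 endothelial genes (population medians 2.32 and 3.995), and these cells were kept. Among HSC the highest mean over the 6 endothelial genes was 11.38 and the lowest over 7 blood genes 2.76 (population medians 3.69 and 9.21).

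Promoter sequences were taken from RefSeq (assembly GRCm38.p6, 250 bases before to 50 after the gene's start) for the 67 of the 76 genes that matched by symbol. The promoters of 4 genes are shown because their genes mark the extremes of the data described below, or carry the matches of more than 1 factor. On the brightest probe sets Mrps23 varied most between populations and Mrpl52 least. Mrps7 was among the genes with the lowest HSC values relative to day 10.5 cluster cells, and Mrpl32 was among the few that were lower in HEC than in EC. Capitals mark exact matches, on either strand, to CCGGAAG (the core read by ETS factors such as GABP), AAGATGGC (read by YY1) or the 10-letter palindrome read by NRF1 (the last capitals in Mrpl32), all factors known to drive nuclear genes for mitochondria.
Mrps23, chr11:88204138-88204437, plus strand: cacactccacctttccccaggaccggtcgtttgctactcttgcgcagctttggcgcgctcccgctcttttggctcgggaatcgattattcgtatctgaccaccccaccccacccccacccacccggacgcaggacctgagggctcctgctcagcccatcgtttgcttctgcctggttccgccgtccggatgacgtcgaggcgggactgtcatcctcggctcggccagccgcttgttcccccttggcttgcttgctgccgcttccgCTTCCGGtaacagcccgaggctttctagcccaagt
Mrpl52, chr14:54426659-54426958, plus strand: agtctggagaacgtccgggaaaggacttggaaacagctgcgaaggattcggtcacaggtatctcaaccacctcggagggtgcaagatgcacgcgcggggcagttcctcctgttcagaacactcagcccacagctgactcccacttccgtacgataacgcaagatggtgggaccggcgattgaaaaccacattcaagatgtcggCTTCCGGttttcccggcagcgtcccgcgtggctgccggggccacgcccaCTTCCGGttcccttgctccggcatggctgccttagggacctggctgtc
Mrps7, chr11:115603890-115604189, plus strand: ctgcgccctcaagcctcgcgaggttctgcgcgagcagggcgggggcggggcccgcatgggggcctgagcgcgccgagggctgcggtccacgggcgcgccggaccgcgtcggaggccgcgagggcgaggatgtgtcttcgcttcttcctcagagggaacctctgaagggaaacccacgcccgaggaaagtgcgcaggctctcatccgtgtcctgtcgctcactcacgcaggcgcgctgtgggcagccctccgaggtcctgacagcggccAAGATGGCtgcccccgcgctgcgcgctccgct
Mrpl32, chr13:14612988-14613287, minus strand: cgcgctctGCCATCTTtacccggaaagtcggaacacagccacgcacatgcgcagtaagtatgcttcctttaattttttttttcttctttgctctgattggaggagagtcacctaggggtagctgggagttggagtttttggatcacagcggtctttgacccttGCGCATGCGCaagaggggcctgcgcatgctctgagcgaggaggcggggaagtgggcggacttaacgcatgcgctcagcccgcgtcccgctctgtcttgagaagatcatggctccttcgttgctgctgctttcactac

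Mrps23 held 1 ETS match, starting 16 bases into the transcript, and Mrpl52 held 2, so the genes with the widest and the narrowest range both carried this motif. Of the 67 promoters 24 (35.8%) held CCGGAAG, against 19.5% of the promoters of 8766 measured genes and 9.12% of all 27025 promoters of the same length. AAGATGGC was found in 12 (17.9%), against 5.13% and 2.88%. The NRF1 palindrome was found in 3 (4.48%), those of Mrpl9, Mrpl32 and Mrpl39, against 2.26% and 0.977%. The E-box CACGTG, read by MYC, was found in 5 (7.46%), against 10.7% and 7.24%. Of the 12 YY1 matches 8 lay 12 to 37 bases after the start and on the gene's own strand, as in Mrps7, and 23 of the 28 ETS matches began within 60 bases of the start. The ETS and YY1 motifs can overlap in the letters AAG, and a match describes letters, not binding. In the comparison of day 10.5 cluster cells with HEC the median difference was 2.61 for the 24 genes with an ETS match and 2.39 for the 43 without, and in that of HSC with day 10.5 cluster cells it was -3.90 and -3.88. For the 12 genes with a YY1 match and the 55 without, the medians were 3.14 and 2.39 in the first of these comparisons and -4.05 and -3.86 in the second.

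The first question was how many of these genes a single cell showed. Day 10.5 cluster cells had nearly the whole set detected and the other populations had less. The number of the 76 genes detected averaged 43.4 ± 11.1 in EC, 51.6 ± 8.22 in HEC, 72.8 ± 3.56 in day 10.5 cluster cells, 57.2 ± 14.3 in day 12.5 cluster cells and 44.8 ± 9.15 in HSC (SD over 7, 7, 28, 16 and 26 cells). The lowest, median and highest cell had 32, 45 and 63 genes in EC, 39, 51 and 65 in HEC, 62, 74 and 76 in day 10.5 cluster cells, 29, 57 and 76 in day 12.5 cluster cells and 27, 44.5 and 59 in HSC. No HSC reached the lowest day 10.5 cluster cell, 1 EC (the cell with germ cell genes) and 1 HEC did, and 7 of 16 day 12.5 cluster cells did. As shares, 57.1% of the 76 genes were detected in an average EC, 67.9% in HEC, 95.8% in day 10.5 cluster cells, 75.2% in day 12.5 cluster cells and 59.0% in HSC. Over all measured genes the shares in the same order were 32.4%, 43.1%, 55.2%, 43.8% and 37.1%.

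**Figure D1:**
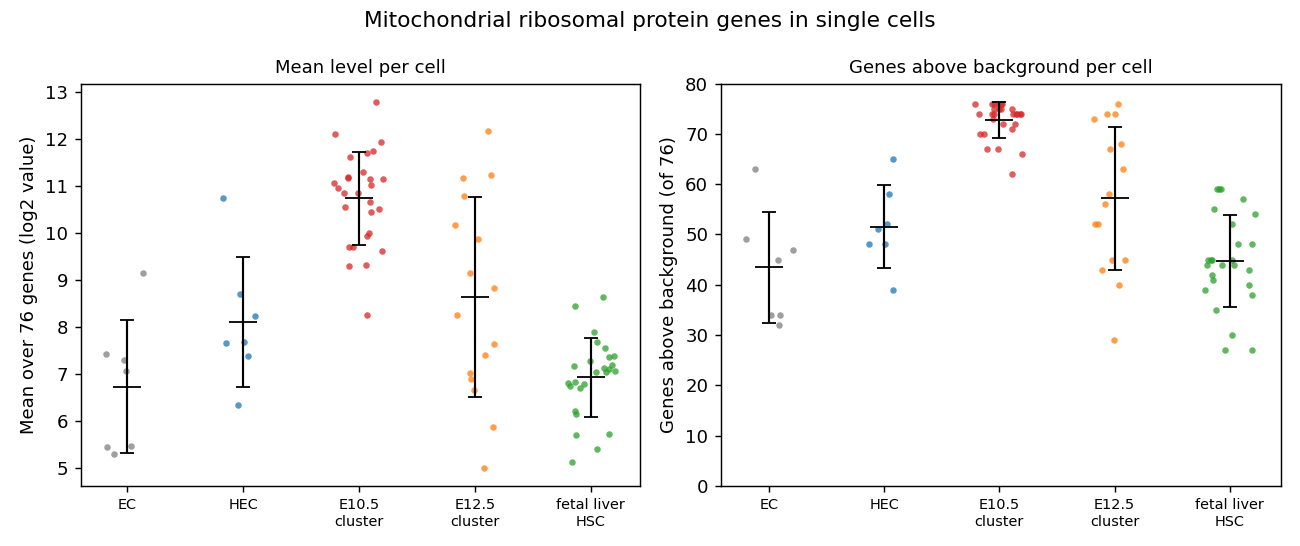
Each point is 1 cell, placed by population: left, the mean log2 value over the 76 mitochondrial ribosomal protein genes, and right, how many of them were detected. Bars show the mean and SD over cells. Day 10.5 cluster cells sit at 62 to 76 genes, and day 12.5 cluster cells spread from 29 to 76.

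The mean log2 value over the 76 genes followed the same order, at 6.73 ± 1.42 in EC, 8.11 ± 1.37 in HEC, 10.73 ± 0.99 in day 10.5 cluster cells, 8.64 ± 2.12 in day 12.5 cluster cells and 6.93 ± 0.84 in HSC. The lowest day 10.5 cluster cell stood at 8.25, and 1 of 7 EC, 2 of 7 HEC, 9 of 16 day 12.5 cluster cells and 2 of 26 HSC were at or above it. Day 12.5 cluster cells differed most among themselves: cell 1 had 29 of the genes and 2350 measured genes detected, and cell 4 had all 76 and 6603. The day 12.5 cluster cells with macrophage genes had 43, 68 and 58 of the genes, and the HSC with Lyve1 had 45 and 44, all inside the range of the other cells of their population. EC cell 3 had 63 and the highest mean of the EC, 9.15.

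Within each population, cells with more genes detected in all also had more of these 76. Across cells the correlation with the number of other genes detected was r = 0.914 in EC (7 cells), 0.864 in HEC (7), 0.776 in day 10.5 cluster cells (28), 0.946 in day 12.5 cluster cells (16) and 0.831 in HSC (26). These points share the depth of their array, and the values are a description. Only 4 day 10.5 cluster cells, 1 day 12.5 cluster cell and 1 HSC had between 4874 and 5128 other genes detected. There the day 10.5 cluster cells had 62 to 70 of the 76 genes, the day 12.5 cluster cell 56 and the HSC 59. With 4500 to 5000 other genes detected, 3 day 10.5 cluster cells had 62 to 70 of the 76 genes and 4 day 12.5 cluster cells 45 to 63. At that depth 4 HEC had 48 to 58, 4 HSC 43 to 59 and 1 EC, the cell with germ cell genes, 63. With 5000 to 5500, 4 day 10.5 cluster cells had 66 to 73, 3 day 12.5 cluster cells 67 to 73, 1 HEC 65 and 1 HSC 59. With 5500 to 6000, 8 day 10.5 cluster cells had 72 to 75 and both day 12.5 cluster cells 74. With 6500 to 7000, 1 cell of each cluster population had all 76. The cluster populations thus overlapped at 5000 to 5500 and at these greater depths, and with 4500 to 5000 their ranges met at 62 to 63. The part of depth in the differences between populations was not tested. Pairs of the 76 genes correlated weakly across cells, with a median r of 0.21 in EC, 0.18 in HEC, 0.33 in day 10.5 cluster cells, 0.42 in day 12.5 cluster cells and 0.06 in HSC.

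**Figure D2:**
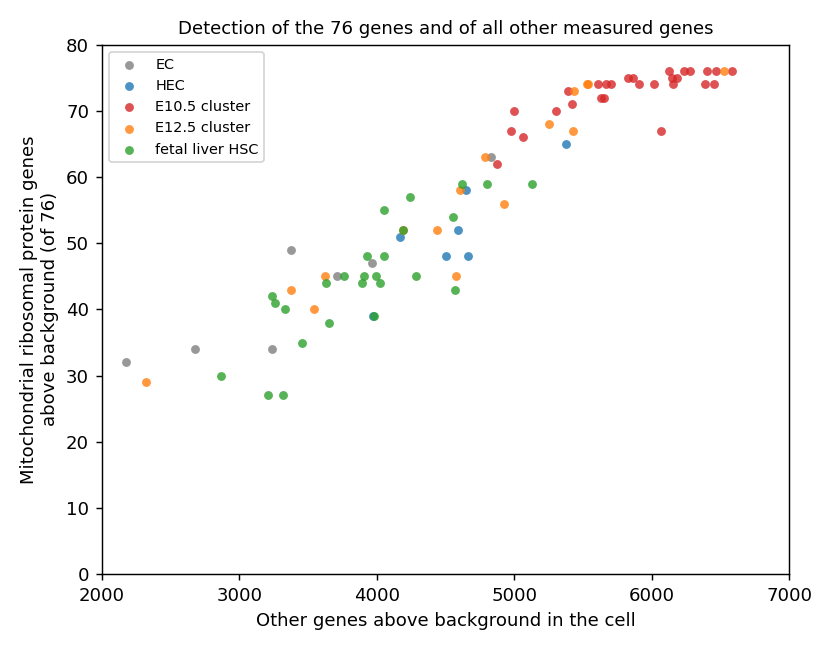
Each point is 1 cell: the horizontal axis gives the number of other measured genes detected in it and the vertical axis the number of the 76 mitochondrial ribosomal protein genes. Both numbers go together in every population, and most day 10.5 cluster cells lie near the limit of 76.

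Gene by gene the pattern was the same. The mean was highest in day 10.5 cluster cells for 75 of the 76 genes, as for 50.4% of all measured genes, and in HEC for the remaining one, Mrps6. It was lowest in EC for 39, in HSC for 31 and in HEC for 6. Day 10.5 cluster cells were highest for 74 genes with the arrays shifted to an equal median and for 63 after quantile normalization. The share of all measured genes is not given for the lowest population or for these rescalings. A total of 34 of the 76 genes were detected in each of the 28 day 10.5 cluster cells (44.7%, against 14.9% of all measured genes), 5 were in each of the 16 day 12.5 cluster cells (6.58%, against 5.52%) and 2 in each of the 26 HSC (2.63%, against 2.78%), which is near the share of all genes. In HEC 10 were in every cell (13.2%, against 11.9%) and in EC 5 (6.58%, against 4.80%). The number detected in at least 50% of the cells was 50 in EC, 63 in HEC, all 76 in day 10.5 cluster cells, 73 in day 12.5 cluster cells and 55 in HSC, without a share of all genes beside it. None of the 76 separated 2 populations without overlap in any of the 5 comparisons. Of all measured genes 0.608% did so for HEC and EC, 0.795% for day 10.5 cluster cells and HEC, 0% for the cluster populations, 0.00935% for HSC and day 12.5 cluster cells and 0.0374% for HSC and day 10.5 cluster cells, so 0 of 76 is near the background.

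**Figure D3:**
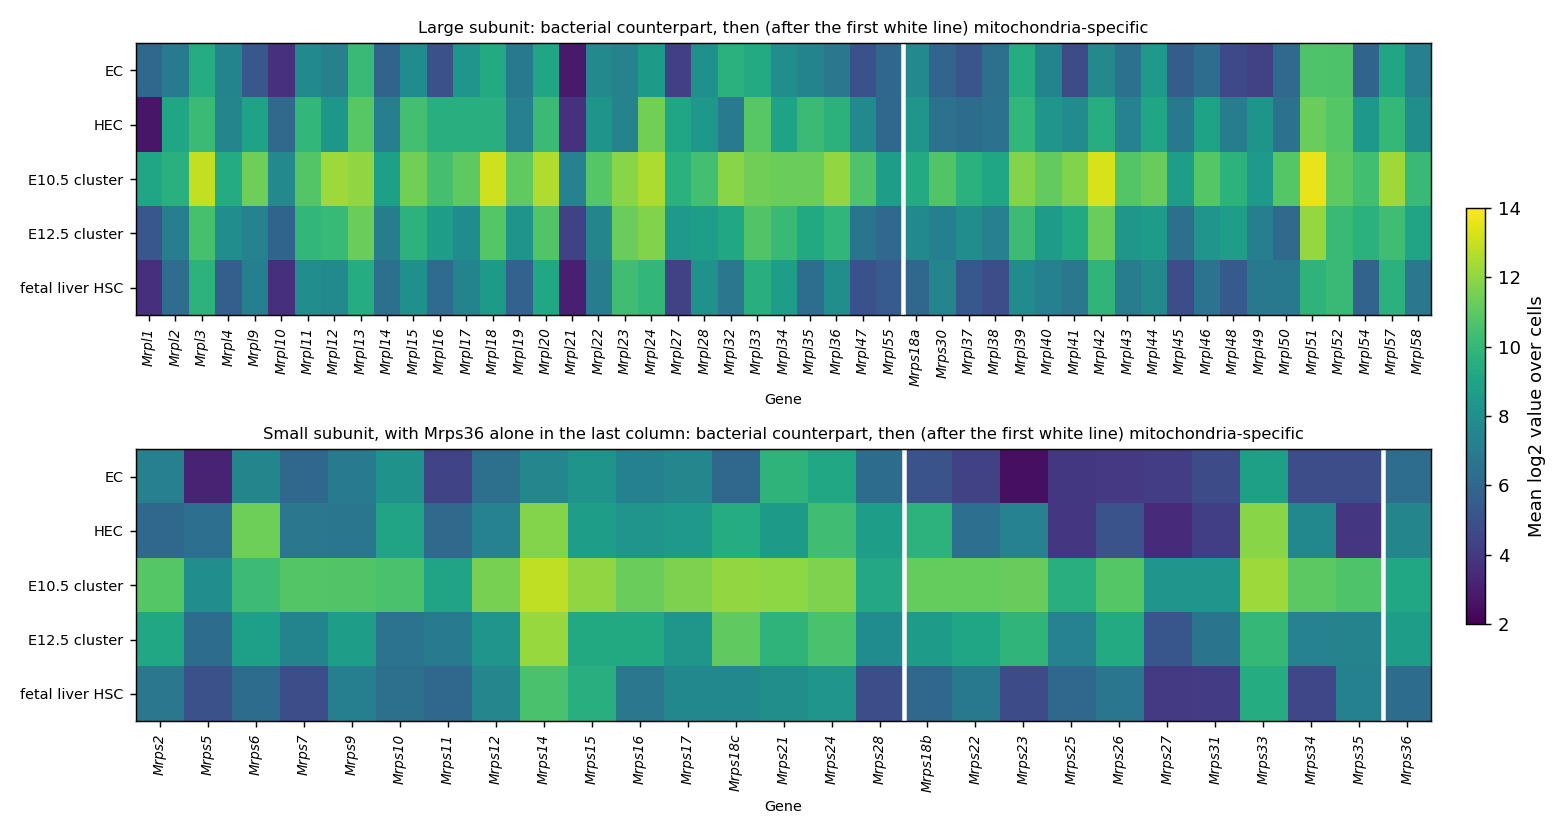
Colour gives the mean log2 value over the cells of a population (rows, EC to HSC) for each of the 76 genes (columns), with the large subunit above and the small subunit below. The day 10.5 cluster row is the brightest for 75 genes (63 after quantile normalization), and Mrpl52 and Mrpl33 stay bright in every row.

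The 5 genes with the highest mean over populations were Mrpl51, Mrps14, Mrpl24, Mrpl13 and Mrpl52. Mrpl51, mitochondria-specific and in the large subunit, averaged 10.68 in EC, 11.27 in HEC, 13.61 in day 10.5 cluster cells, 12.08 in day 12.5 cluster cells and 9.78 in HSC. Mrps14, counterpart of a bacterial protein in the head of the small subunit, averaged 7.58 in EC, 11.78 in HEC, 12.87 in day 10.5 cluster cells, 12.16 in day 12.5 cluster cells and 10.56 in HSC. Both were detected in all 28 day 10.5 cluster cells and in most cells of every population, Mrps14 in 25 of 26 HSC and Mrpl51 in 22. Mrpl52, a mitochondria-specific protein of the large subunit, was detected in all 84 cells on its brightest probe set. It differed least among the brightest probe sets, its means spanning 0.96 log2 units. Its lowest, median and highest values were 7.11, 10.93 and 13.16 in EC, 5.92, 11.37 and 13.61 in HEC, 5.20, 11.27 and 13.39 in day 10.5 cluster cells, 5.67, 11.25 and 13.12 in day 12.5 cluster cells and 5.79, 10.07 and 11.64 in HSC. The populations overlapped almost fully. Mrpl33, of bacterial descent, was the only other one of the 76 detected in all 84 cells on its brightest probe set, and its means spanned 2.07 units. Mrpl28 was detected in 74 cells on its brightest probe set but in all 84 on another. At the other end Mrpl21 was detected in 32 of 84 cells, and Mrpl10 and Mrps27 in 39 each.

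Mrps23, a mitochondria-specific protein of the small subunit, spanned the widest range on the brightest probe sets, 8.71 log2 units. It was detected in 0 of 7 EC (exact 95% interval 0 to 41.0%), 5 of 7 HEC, 28 of 28 day 10.5 cluster cells, 14 of 16 day 12.5 cluster cells and 8 of 26 HSC. Its lowest, median and highest values were 2.35, 2.39 and 3.01 in EC, 2.33, 7.39 and 12.80 in HEC, 8.57, 11.63 and 13.31 in day 10.5 cluster cells, 2.95, 11.28 and 12.06 in day 12.5 cluster cells and 2.33, 2.91 and 12.19 in HSC. On this probe set all EC and a majority of HSC were at background, while every day 10.5 cluster cell was above it. The other 2 Mrps23 probe sets gave 3.26 and 2.25 in day 10.5 cluster minus HEC, against 3.86 on the brightest. Mrpl41, mitochondria-specific and in the large subunit, had the next widest range, 6.97 units, and was detected in 2 of 7 EC, 4 of 7 HEC, 27 of 28 day 10.5 cluster cells, 12 of 16 day 12.5 cluster cells and 13 of 26 HSC.

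**Figure D4:**
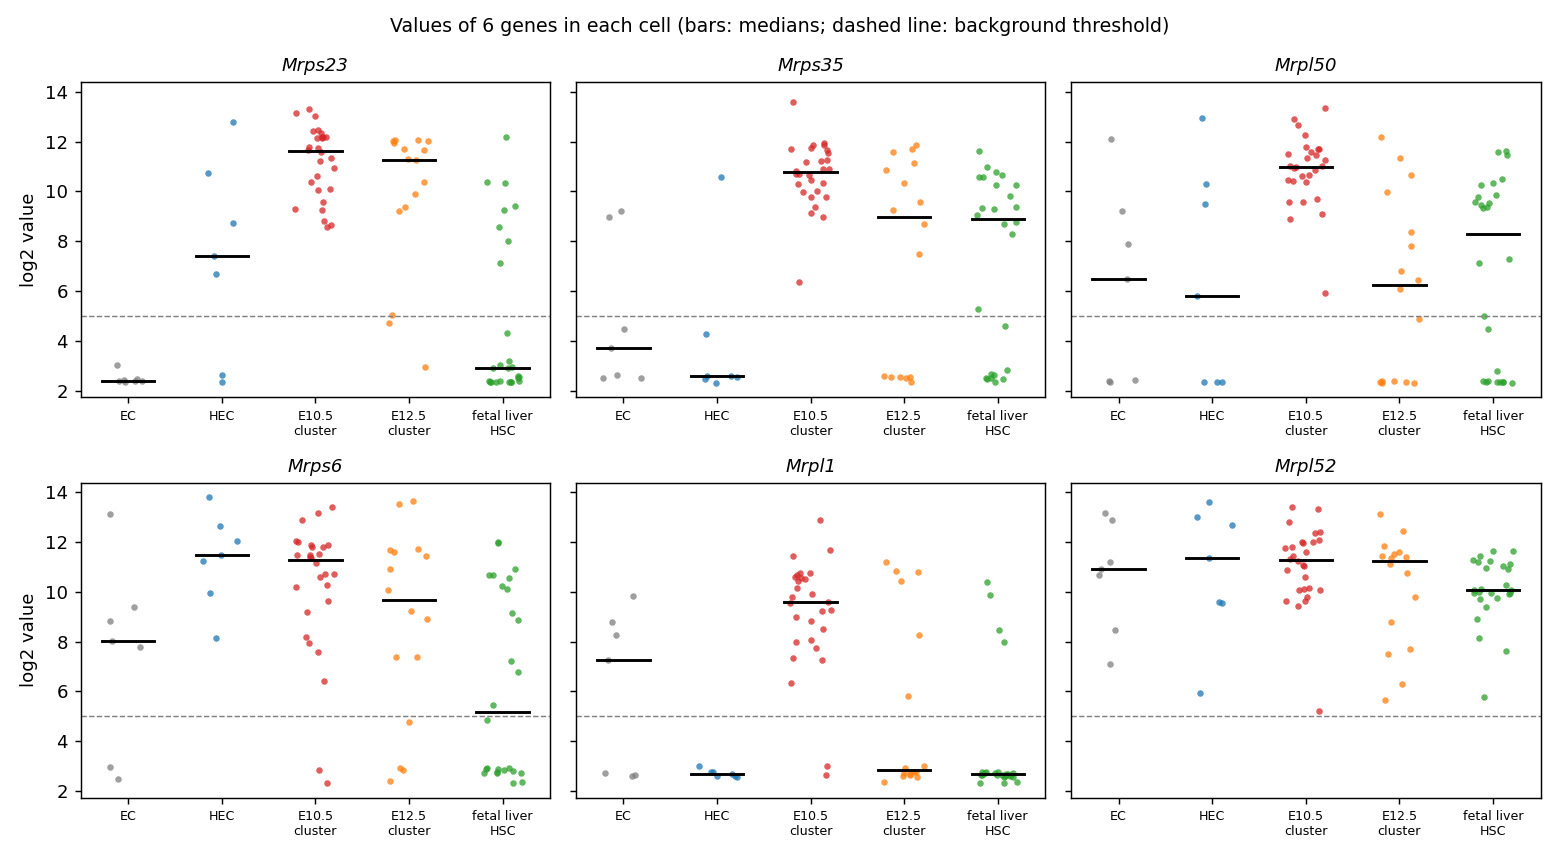
Each point is the log2 value of 1 cell for 6 of the genes, by population, with the median as a bar and the background threshold of 5 as a dashed line. Mrps23, Mrps35, Mrpl50 and Mrpl1 show cells at background in some populations and cells far above it in others, while Mrpl52 is detected in all 84 cells.

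HEC were compared with EC of the same embryos' stage and tissue. Of the 76 genes 39 were called higher in HEC and 4 lower, where 45.9% of all measured genes were higher and 7.36% lower, and the median difference was 1.07, against 0.82 for all measured genes. A total of 26 genes were higher by 2 units or more, where 26.2% of all genes were. The direction depended on scaling. With the arrays shifted to an equal median the median difference was 0.10, with 26 genes higher and 9 lower (26.6% and 30.7% of all genes), and after quantile normalization it was -0.53, with 14 higher and 21 lower (25.5% and 21.6%). In cells with detection the median difference was 0.97 for the 60 genes with at least 3 such cells in both populations, as for all genes, 0.97. By role, the medians were 1.54 for the mitochondria-specific small subunit genes, 0.95 for the small subunit genes of bacterial descent, 1.14 for the large subunit genes of bacterial descent and 0.83 for the mitochondria-specific ones there. After quantile normalization they were 0.49, -0.58, -0.35 and -0.55. Mrps18b and Mrps18a were counted as mitochondria-specific throughout, though they are copies of the same ancestral gene as Mrps18c, which was counted as of bacterial descent. Without the 6 cells with genes of other cell types 49 genes were higher and 2 lower, where 49.5% of all genes were higher and 6.28% lower. The lower genes were then 64 in day 12.5 minus day 10.5 cluster (39.0% of all genes), 58 in HSC minus day 12.5 cluster (38.0%) and 76 in HSC minus day 10.5 cluster (55.6%). Without HEC cell 4 the median difference was 1.63, with 53 genes higher.

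On the brightest probe sets Mrps23 had the largest difference between HEC and EC, at 4.84 log2 units. Its other 2 probe sets gave 1.94 and 0.46. Mrpl27, which has a bacterial counterpart in the large subunit, lay at 2.49, 10.26 and 13.31 in HEC (lowest, median and highest cell), against 2.51, 2.58 and 13.26 in EC. It was at background in every EC but cell 3, and its difference was 4.80, or 2.26 on its other probe set. Mrps18b, of the small subunit, lay at 4.05, 9.77 and 12.63 in HEC, against 2.59, 4.94 and 8.03 in EC. All HEC but cell 4 were above every EC, and the difference was 4.68. Mrpl16, a large subunit protein of bacterial descent, lay at 2.66, 10.73 and 11.29 in HEC, against 2.39, 3.14 and 8.60 in EC, where again a single HEC, cell 1, lay inside the EC range. Its difference was 4.56.

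The 4 genes lower in HEC were Mrpl1, Mrpl32, Mrps21 and Mrps2, all of bacterial descent. Mrpl1, whose bacterial counterpart forms the stalk beside the exit site for transfer RNA, was detected in 0 of 7 HEC and 4 of 7 EC. It lay at 2.58, 2.67 and 3.01 in HEC, against 2.61, 7.26 and 9.85 in EC, with a difference of -3.31, or -0.94 with probe sets averaged. Mrpl32, a subunit cut to its mature form inside the mitochondrion by the m-AAA protease, lay at 2.32, 4.85 and 13.54 in HEC, against 7.57, 9.59 and 11.78 in EC. The HEC values lay on both sides of the EC range, and the difference was -2.66. Mrps21 and Mrps2 differed by -1.23 and -1.22, with SDs over cells of 3.11 to 4.79 in either population. Leaving out EC cell 3 or HEC cell 4 gave 2 lower genes, and leaving out EC cell 5 gave 7.

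Day 10.5 cluster cells were then compared with HEC, the endothelial cells from which such clusters bud. Of the 76 genes 66 were higher in day 10.5 cluster cells and 1 lower, where 43.1% of all measured genes were higher and 15.7% lower. The median difference was 2.47, against 0.71 for all genes, and it was 2.97 with the arrays shifted, 1.998 after quantile normalization and 1.85 with probe sets averaged. With medians over cells in place of means it was 1.4997, against -0.009 for all genes, with 48 genes higher, where 34.3% of all genes were. After quantile normalization 53 genes were higher and 1 lower, where 27.9% of all genes were higher and 22.8% lower. As deposited, the difference was 2 units or more for 47 genes, where 25.3% of all genes were higher by as much. The median share of cells with detection was 28.6 percentage points higher, against 10.7 for all genes, and the median level in cells with detection was 0.68 higher over 69 genes, against -0.08 for all genes. The 9 genes between the limits included Mrpl52, Mrpl33, Mrpl16 and Mrpl27. In HEC the gene means had a median of 8.27 for the 76 genes and 5.28 for all measured genes, near the background threshold of 5. The part of this unlike level in the difference from all genes was not tested.

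By role, the 10 mitochondria-specific proteins of the small subunit had the largest median difference between day 10.5 cluster cells and HEC, 4.43, with 9 of them higher. It was 2.94 for the 16 small subunit proteins of bacterial descent (14 higher, 1 lower), 2.34 for the 29 of the large subunit (24 higher) and 2.32 for the 20 mitochondria-specific ones of the large subunit (18 higher). After quantile normalization these medians were 3.40, 2.33, 1.45 and 1.83. The mitochondria-specific small subunit genes were also the least often found in EC and HEC: on average 32.9% of them were detected in an EC and 45.7% in a HEC, and 94.6% in a day 10.5 cluster cell, 68.8% in a day 12.5 cluster cell and 47.3% in a HSC. The difference between the classes was not tested.

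The genes with the largest differences there were Mrps35, Mrpl1, Mrps26 and Mrps25, of which the Mrps genes are all mitochondria-specific. Mrps35 lay at 6.38, 10.77 and 13.61 in day 10.5 cluster cells, against 2.32, 2.58 and 10.57 in HEC. It was detected in 28 of 28 cluster cells and in 1 of 7 HEC, cell 6, and its difference was 6.76. Mrpl1 lay at 2.64, 9.58 and 12.88 in day 10.5 cluster cells, against at most 3.01 in HEC, and it was detected in 26 of 28 cluster cells. Its difference was 6.38, or 2.43 with probe sets averaged. Mrps26 lay at 3.09, 11.35 and 13.39 in day 10.5 cluster cells, against 2.94, 3.10 and 10.75 in HEC, a difference of 5.77. Mrps25 lay at 4.48, 10.01 and 12.70 in day 10.5 cluster cells, against 2.35, 3.03 and 10.00 in HEC, a difference of 5.66, or 1.93 with probe sets averaged. In both, most HEC were at background and the 1 or 2 HEC above it lay inside the range of the cluster cells.

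Mrps6, whose bacterial counterpart lies on the platform of the small subunit, was the 1 lower gene. It lay at 2.31, 11.26 and 13.43 in day 10.5 cluster cells, against 8.14, 11.50 and 13.81 in HEC, with a difference of -1.13. The medians nearly coincided, and 2 of 28 cluster cells but no HEC were at background. The difference was under 1 in size with the arrays shifted to an equal median, when probe sets were averaged, or without any 1 of day 10.5 cluster cells 5, 11 and 28 and HEC 3 and 6.

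Day 12.5 cluster cells were compared with day 10.5 cluster cells, sorted by the same markers. None of the 76 genes was higher at day 12.5 and 66 were lower, where 5.47% of all measured genes were higher and 39.9% lower. The median difference was -1.98, against -0.66 for all genes. After quantile normalization it was -1.15, with 41 genes lower and none higher, where 18.97% of all genes were lower and 15.1% higher. The median change in the share of cells with detection was -21.0 percentage points, against -8.93 for all genes, and the median difference in cells with detection was -0.58 over 76 genes, against -0.02 for all genes. A total of 37 genes were lower by 2 units or more, where 17% of all genes were, and the 10 between the limits included Mrpl13, Mrpl24, Mrps14 and Mrps18c.

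All 10 mitochondria-specific small subunit genes were lower at day 12.5, with a median of -2.26, as were 14 of 16 small subunit genes of bacterial descent (-1.97), 24 of 29 of the large subunit (-2.04) and 18 of 20 mitochondria-specific ones there (-1.90). The 4 largest differences were those of Mrpl50, Mrpl9, Mrpl47 and Mrps10. Mrpl50, mitochondria-specific and in the large subunit, lay at 2.30, 6.26 and 12.18 in day 12.5 cluster cells, against 5.94, 11.003 and 13.35 in day 10.5 cluster cells. It was detected in 9 of 16 cells, against 28 of 28, and its difference was -4.69, or -1.89 on its other probe set. Mrpl9, of bacterial descent, was detected in 10 of 16 cells, against 28 of 28. It lay at 2.71, 9.11 and 11.67 in day 12.5 cluster cells, against 7.91, 11.60 and 13.27 in day 10.5 cluster cells, and differed by -4.05. Mrpl47, also of bacterial descent, was detected in 9 of 16 cells, against 27 of 28, and differed by -4.01. Mrps10, of the small subunit, was found in 8 of 16 cells, against 26 of 28, and differed by -3.99. In each of them the highest day 12.5 cluster cells lay inside the day 10.5 range, and 6 or more of the 16 were at background.

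HSC of the fetal liver were compared with day 12.5 cluster cells. None of the 76 genes was higher in HSC and 54 were lower, where 7.91% of all measured genes were higher and 36.9% lower. The median difference was -1.70, against -0.53 for all genes, and -0.73 after quantile normalization, with 2 genes higher and 30 lower, where 17.3% of all genes were higher and 19.3% lower. A total of 32 genes were lower by 2 units or more, where 15.2% of all genes were. In cells with detection the median difference was -0.89 over 75 genes, against -0.46 for all genes. Of the mitochondria-specific small subunit genes 8 of 10 were lower in HSC, with a median of -2.36, against medians of -1.74, -1.64 and -1.64 for the other 3 classes. Mrps23 differed by -5.10 on its brightest probe set, but by -0.93 and 0.31 on its other 2, which were detected in 55 and 46 of 84 cells, and by -1.91 with the probe sets averaged. Mrpl27 lay at 2.34, 2.54 and 11.68 in HSC, against 2.47, 9.86 and 13.61 in day 12.5 cluster cells, and was detected in 6 of 26 cells, against 11 of 16. It differed by -4.09, or by -1.40 on its other probe set, which was detected in 32 of 84 cells. Mrpl54, mitochondria-specific and in the large subunit, lay at 2.30, 4.10 and 11.09 in HSC, against 3.22, 10.02 and 12.88 in day 12.5 cluster cells, and differed by -3.88. In each the populations overlapped, and 13 or more of the 26 HSC were at background. Mrpl50, Mrps15 and Mrps30 had a difference above 0, at most 0.69. That value, of Mrpl50, was -2.73 on its other probe set, which was detected in 50 of 84 cells.

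HSC were also compared with day 10.5 cluster cells, which enter 3 of the 5 comparisons, so the differences are not independent of those above. Of the 76 genes 75 were lower in HSC and none higher, where 55.5% of all measured genes were lower and 5.01% higher, and the remaining gene, Mrpl52, differed by -0.96. The median difference was -3.91, against -1.29 for all genes, and -2.12 after quantile normalization, with 60 genes lower and none higher, where 25.8% of all genes were lower and 20.4% higher. A total of 72 genes were lower by 2 units or more, where 36.8% of all genes were. The median change in the share of cells with detection was -36.7 percentage points, against -16.2 for all genes, and the median difference in cells with detection was -1.57, against -0.31. The medians by role were close, at -3.77 and -3.85 for the large subunit genes with and without a bacterial counterpart and -4.00 and -4.18 for those of the small subunit.

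On the brightest probe sets the largest difference was that of Mrps23, at -6.44, but its other 2 probe sets gave -3.15 and -1.39 and the average of the probe sets -3.66. Mrps34, a mitochondria-specific small subunit protein with variants known to cause Leigh syndrome in people, lay at 2.31, 2.66 and 10.83 in HSC, against 7.03, 10.99 and 13.15 in day 10.5 cluster cells. It was detected in 8 of 26 HSC and in 28 of 28 cluster cells, and differed by -6.38. Mrps7, whose bacterial counterpart nucleates the head of the small subunit, lay at 2.35, 2.70 and 11.05 in HSC, against 8.46, 10.86 and 13.02 in day 10.5 cluster cells, and was detected in 9 of 26 HSC, against 28 of 28 cluster cells. Its difference was -5.94. Mrpl47 lay at 2.32, 2.87 and 11.08 in HSC, against 3.92, 11.22 and 13.45 in day 10.5 cluster cells, and differed by -5.64, or by -2.22 with probe sets averaged. In all of them most HSC were at background and a minority overlapped with the cluster cells.

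Several genes are known for roles of their own. Mrps18a, Mrps18b and Mrps18c are 3 copies of 1 ancestral gene, of which Mrps18c takes the bacterial position in the small subunit, Mrps18b another site in the small subunit and Mrps18a a site in the large one. Mrps18c was detected in 3 of 7 EC, 5 of 7 HEC, 28 of 28 day 10.5 cluster cells, 15 of 16 day 12.5 cluster cells and 16 of 26 HSC. Mrps18b was in 3, 6, 26, 11 and 13 cells and Mrps18a in 4, 5, 25, 11 and 10 cells of the same populations. All 3 were detected together in 0 of 7 EC, 3 of 7 HEC, 25 of 28 day 10.5 cluster cells, 9 of 16 day 12.5 cluster cells and 5 of 26 HSC, and none of them in 7 of 26 HSC and 1 of 16 day 12.5 cluster cells.

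Mrpl12, counterpart of the bacterial stalk protein that recruits translation factors, averaged 12.22 ± 1.97 in day 10.5 cluster cells, against 8.37 ± 4.03 in HEC, and 7.70 ± 3.34 in HSC, against 10.07 ± 3.20 in day 12.5 cluster cells. Mrps12, counterpart of a bacterial protein of the decoding centre, was detected in 16 of 26 HSC, against 28 of 28 day 10.5 cluster cells. Mrps30 is named for the small subunit but lies in the large one, and averaged 10.73 ± 1.91 in day 10.5 cluster cells, against 6.48 ± 4.40 in HEC. Mrps36 is not a stable ribosomal protein and is known as a subunit of the alpha-ketoglutarate dehydrogenase complex of the citric acid cycle. It averaged 9.21 ± 2.11 in day 10.5 cluster cells, against 7.47 ± 3.44 in HEC, and 8.75 ± 2.89 in day 12.5 cluster cells, which was within 1 unit of day 10.5 cluster cells.

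Of the 76 genes 42 had more than 1 probe set. Of 52 other measured probe sets of 32 genes, the sign was that of the brightest in 38, 47, 42, 40 and 48 for the 5 comparisons in the order given. The difference was 1 or more in the direction of the brightest probe set in 16, 23, 27, 21 and 32 of them. Both probe sets differed by 1 or more in opposite directions in 1, for HEC minus EC. Opposite differences of 1 or more also occurred where the brightest probe set differed by less than 1. Examples were Mrps25 in HEC minus EC (2.06 against -0.03) and Mrpl50 in HSC minus day 12.5 cluster (-2.73 against 0.69). The medians over these other probe sets were smaller, at 0.61, 0.93, -1.10, -0.85 and -1.64.

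Other genes of mitochondrial translation were taken from lists of subunits with other names, assembly factors, translation factors and transfer RNA synthetases. Beside the counts below, 43.1% of all measured genes were higher and 15.7% lower in day 10.5 cluster minus HEC. In HSC minus day 10.5 cluster 5.01% were higher and 55.5% lower. The subunits with other names (Dap3, Ptcd3, Chchd1 and Gadd45gip1) were all higher in day 10.5 cluster cells than in HEC, and all lower in HSC than in day 10.5 cluster cells. Gadd45gip1, a large subunit protein, differed by 4.03 and -4.96 in these comparisons, and Ptcd3, a small subunit protein, by 3.12 and -4.44. Of 24 assembly factors 19 were higher in day 10.5 cluster cells than in HEC and none lower, with a median of 2.06. Among them Eral1, a GTPase that binds the small ribosomal RNA, differed by 5.24, and Malsu1, which keeps the subunits apart during assembly, by 5.66. In HSC minus day 10.5 cluster cells 21 of the 24 were lower, with a median of -2.62, which was -0.48 after quantile normalization.

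Of 13 translation factors 10 were higher in day 10.5 cluster cells than in HEC. Tufm, which brings charged transfer RNA to the ribosome, differed by 1.63, and Mtfmt, which makes the initiator formyl-methionine, by 4.70. In HSC minus day 10.5 cluster cells 10 were lower, and Guf1, a translating GTPase, was the 1 higher, by 1.35. Of 19 transfer RNA synthetase and amidotransferase genes 14 were higher in day 10.5 cluster cells than in HEC and none lower, led by Yars2 at 6.27. In HSC 11 of them (57.9%) were lower than in day 10.5 cluster cells, near the 55.5% of all measured genes. Their median of -1.81 turned to 0.19 after quantile normalization. Of 12 genes that copy or transcribe mitochondrial DNA, 8 (66.7%) were higher and 2 (16.7%), Polg and Mterf2, lower in day 10.5 cluster cells than in HEC. Of all measured genes 43.1% were higher and 15.7% lower. Ssbp1, the single-strand binding protein, differed by 5.05.

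The proteins have to be imported, and of 21 measured import genes (Timm and Tomm) 17 were higher in day 10.5 cluster cells than in HEC and none lower, with a median of 1.88. All 21 were lower in HSC than in day 10.5 cluster cells, with a median of -3.63. Import receptor Tomm20 was detected in all 26 HSC and all 28 day 10.5 cluster cells and differed by -2.27, and the channel gene Tomm40 was in 13 of 26 HSC, against 28 of 28 cluster cells, and differed by -4.45. The nuclear-encoded subunits of oxidative phosphorylation, the machine that the mitochondrial ribosome serves, had a smaller median in day 10.5 cluster cells minus HEC, 0.79 over 74 genes. Of them 28 (37.8%) were higher and none lower, where 43.1% of all measured genes were higher and 15.7% lower. The HEC minus EC median of these subunits was larger, 1.45, with 53 higher and 2 lower (45.9% and 7.36% of all genes). It stayed above 0 after both rescalings (0.48 and 0.34), where that of the mitochondrial ribosomal genes was 0.10 and -0.53. In HSC minus day 10.5 cluster cells 70 of the 74 were lower, where 55.5% of all genes were, with a median of -2.36.

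The proteins of the cytoplasmic ribosome had medians of 0.62, 0.45, -0.08, -0.18 and -0.82 over 46 genes in the 5 comparisons in the order above. With the arrays shifted the first became -0.35, and after quantile normalization the last 2 became 0.07 and 0.04. Proteasome subunits, parts of the complex that degrades proteins, had medians of 1.13, 1.25, -1.32, -1.40 and -3.05 over 39 genes. The mean level per cell over the cytoplasmic ribosomal genes was 13.18 in HSC and 14.04 in day 10.5 cluster cells. The difference between these lists was not tested.

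**Figure D5:**
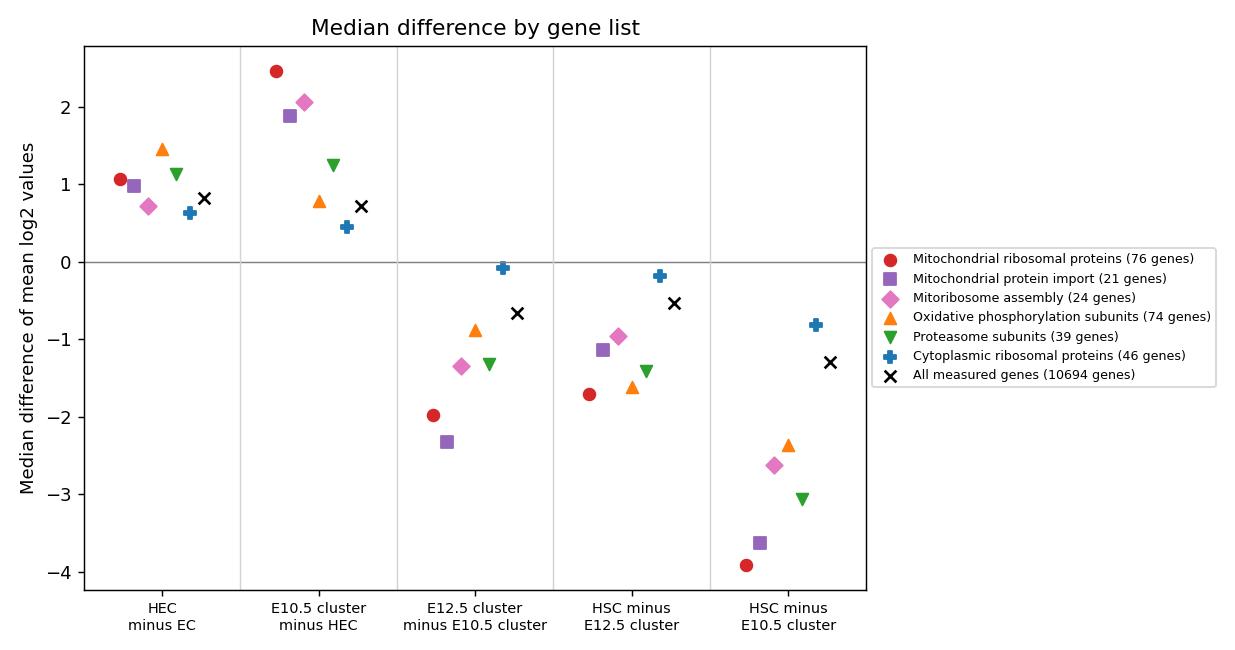
Points give the median, over the measured genes of each list, of the difference in mean log2 value for the 5 comparisons. Mitochondrial ribosomal protein genes stand at 2.47 in day 10.5 cluster minus HEC and -3.91 in HSC minus day 10.5 cluster, against 0.71 and -1.29 for all measured genes. Their HEC minus EC value of 1.07 becomes -0.53 after quantile normalization.

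Of 11 regulators listed, Ppargc1a was not measured. Of the other 10, 6 were higher in day 10.5 cluster cells than in HEC and none lower (43.1% and 15.7% of all measured genes), with a median of 1.04. Of the 10, 1, Myc, was higher by 2 or more, where 25.3% of all genes were. In HSC minus day 12.5 cluster 2 were higher and 3 lower (7.91% and 36.9% of all genes), with a median of -0.13. In HSC minus day 10.5 cluster 1 was higher and 7 lower (5.01% and 55.5% of all genes). Myc, known to drive growth and mitochondrial biogenesis genes, was detected in 25 of 28 day 10.5 cluster cells and 2 of 7 HEC, and differed by 6.17. It was in 7 of 16 day 12.5 cluster cells and 8 of 26 HSC, with differences of -4.13 in day 12.5 minus day 10.5 cluster and -5.50 in HSC minus day 10.5 cluster. Its relative Mycn had the other direction in HSC, where it was detected in 20 of 26 cells, against 10 of 28 day 10.5 cluster cells, with a difference of 3.63. Gabpa, whose product binds the ETS core, was detected in 6 of 7 HEC and 4 of 7 EC and differed by 2.90, and was in 16 of 26 HSC, against 28 of 28 day 10.5 cluster cells, with -3.52. Yy1 was detected in 21 of 26 HSC and in all 28 day 10.5 cluster cells and differed by -3.27. Nrf1, whose product binds the palindrome shown in Mrpl32, was detected in 2 of 26 HSC and 13 of 28 day 10.5 cluster cells, a difference of -2.11.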

How the data were processed

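Each of the 85 arrays holds 1 cell. The deposited values are log2 expression values that the authors made with GCRMA and affy, which the submitters' processing notes list without versions. They ran from 2.19 to 17.86, and 17.6% exceeded the background threshold of 5. Nothing was normalized again. In 62 arrays the spike controls Dap (12.64 at its 3' end) and Phe (9.50) held the same values, and a scaling step is not given in the sources used here.

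Probe sets were named from the platform annotation, with symbols found in RefSeq GRCm38.p6, and the brightest probe set, by mean over the 5 populations, stood for each gene. The genes and lists were chosen with earlier results of these data known. A difference is that of mean log2 values over cells, called at 1. No test was made, since no animal is named. Named genes were the 4 largest differences each way among those called and detected by 50% or more of the cells where they were higher, the 5 brightest, and 8 with roles of their own; Mrpl10, Mrpl21, Mrpl33, Mrps15 and Mrps27 were named after their values were seen, as extremes of detection or sign. Genes of the other lists were named after their values were seen. Intervals on shares of cells are exact Clopper-Pearson 95% and cover only the counting of cells; precision is limited by how many arrays there were. Alternatives were 2 rescalings, mean of probe sets, filters, thresholds of 4 and 6, medians over cells, cells 20 and 21 apart, no doubted cells, and each cell left out in turn. One alternative was chosen after seeing the data: cells with both control values. The calculation was tested on simulated data. Python 3.11.15, numpy 2.4.6, pandas 2.3.3 and scipy 1.17.1 were used.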

Additional observations from a re-analysis of the deposited data

Results flagged for a closer look

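In populations of 7 cells, the value of a single cell decides many means. Over 31 named genes and the 2 values per cell (genes detected and mean level), 66 groups of 7 cells were examined. In 8, all of single genes, the highest or lowest cell stood far from the others by Dixon's limit. Chance passes this limit in about 1 of 20 groups of normally spread values. Many of these genes were named for their differences between these populations, and many values lay either at background or far above it. The 8 are therefore a description and are not set against that rate. Mrpl27 was 13.26 in EC cell 3, the cell with germ cell genes, against 2.51 to 3.24 in the other EC. Mrps23 was 3.01 in the same cell, against 2.35 to 2.47, all below background. Mrpl13 was 4.19 in EC cell 2, against 10.15 to 12.72 in the other EC. Among HEC, Mrpl51 was 2.47 and Mrps18b 4.05 in cell 4, against 10.13 to 14.12 and 9.12 to 12.63 in the others. Mrpl16 was 2.66 in HEC cell 1, against 10.05 to 11.29. Mrps25 was 10.00 in HEC cell 2, against 2.35 to 3.27, and Mrps35 was 10.57 in HEC cell 6, against 2.32 to 4.27.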

How the results depend on the processing

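The medians of the 4 comparisons other than HEC minus EC kept their direction under every alternative that could change them. HEC minus EC did not: after quantile normalization its median was -0.53, with 14 genes higher and 21 lower, and the cause was not tested. Its number of lower genes was 9 with the arrays shifted, 1 with probe sets averaged, 7 with medians over cells and 2 without the 6 doubted cells. For day 10.5 cluster minus HEC the 1 lower gene became 0 with the arrays shifted or probe sets averaged (11.5% of all genes in either). It became 2 over cells with both control values (18.1%). Quantile normalization gave 41 lower genes for day 12.5 minus day 10.5 cluster, 2 higher and 30 lower for HSC minus day 12.5 cluster, and a median of -2.12 for HSC minus day 10.5 cluster. HSC minus day 12.5 cluster had 1 higher gene with medians over cells (5.85% of all genes) and 2 over cells with both control values (9.98%). Of the genes called in HEC minus EC, 10 changed sign after quantile normalization, as did 1, 1 and 2 in the 3 later comparisons. Among named genes in HEC minus EC, Mrpl12 turned to -0.53 and Mrps36 to -0.92 after quantile normalization, and Mrps36 turned to -0.59 in day 10.5 cluster minus HEC over cells with both control values. Leaving out each cell in turn moved the HEC minus EC median between 0.76 and 1.63, its higher genes between 33 and 53 and its lower genes between 2 and 7. For day 10.5 cluster minus HEC the median ranged from 2.18 to 2.89, and the higher and lower genes from 59 to 68 and from 0 to 1. For day 12.5 minus day 10.5 cluster the median ranged from -2.20 to -1.69 and the lower genes from 62 to 69. For HSC minus day 12.5 cluster the median ranged from -1.97 to -1.47, the lower genes from 51 to 59 and the higher from 0 to 1. For HSC minus day 10.5 cluster the median ranged from -4.06 to -3.80 and the lower genes from 75 to 76. No paired analysis was possible because each population counts as 1 sample and cell numbers pair nothing. All 76 genes stayed measured under each threshold and filter, so these alternatives could not change a median difference or a number of higher or lower genes. A population of 7 cells limits EC and HEC most, and a gene at background has no measured level.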
